A study of Mus musculus with 9 samples.

Results

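The regions described here are the RING1B peaks of mouse embryonic stem cells (mESCs) that the peak lists place outside genes and far from the nearest gene start. A peak was taken when it lay on chromosomes 1 to 19, when its deposited location did not include the word intragenic, and when its midpoint was more than 10000 bp from the start of the nearest RefSeq gene. By this rule 237 of the 1781 peaks of chromosomes 1 to 19 in the Eed-/- list were distal, which was 13.3% (95% exact binomial interval 11.8% to 15.0%), and 334 of 2307 in the Eed+/+ list, which was 14.5% (13.1% to 16.0%). The whole lists hold 1810 Eed-/- and 2347 Eed+/+ peaks. The rule is about the RefSeq genes used for the lists. In the GENCODE M1 annotation of the same mm9 assembly, 128 of the 237 distal Eed-/- peaks (54.0%) and 155 of the 334 distal Eed+/+ peaks (46.4%) covered the annotated start of a gene, against 77.9% of all Eed-/- and 75.9% of all Eed+/+ peaks. Distal intergenic is thus the name given by the deposited annotation, and in the second annotation it misses the peaks that cover a gene start. Peaks called distal below are those chosen by the rule.

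Eed-/- mESCs carry a constitutive knockout of Eed, a core subunit of Polycomb repressive complex 2, and were compared with wild-type Eed+/+ mESCs. The strain is given as C57BL/6 for both, and chromatin was precipitated with a RING1B antibody. The comparison asks where RING1B is found when trimethylation of histone H3 at lysine 27 (H3K27me3) is lost. Each genotype has 1 list, called from 3 Eed-/- samples, which the study's methods describe as sequencing lanes, and from 1 Eed+/+ sample, so no replicate error can be given and no test across samples was possible. The libraries held 70343706 mapped tags in Eed-/- and 16814546 in Eed+/+ cells, a depth ratio of 4.18, and both lists were limited to peaks of more than 100 tags. A peak of a given level holds more tags in the Eed-/- list, and what depth and genotype each contribute cannot be told apart from the lists. The input DNA samples are labelled Eed+/+ only, so fold enrichment in Eed-/- cells has no matched input. Intervals on shares cover counting error only.

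RING1B is the E3 ubiquitin ligase of Polycomb repressive complex 1 (PRC1), which places ubiquitin on lysine 119 of histone H2A. PRC2, of which EED is the subunit that reads its own mark, methylates lysine 27 of histone H3, and chromodomain (CBX) proteins of one form of PRC1 bind that mark. In mESCs both complexes sit mainly on CpG islands, stretches rich in C, G and CpG dinucleotides that often carry gene starts, and above all on those of developmental regulators.

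The sequences below show how different the DNA under these peaks can be. Each is 200 bases of the mm9 plus strand centred on the summit of a distal peak, with CpG dinucleotides in capitals. They were chosen as examples of the classes that the results below turn on, for an overlap between genotypes (Pax3, Rasgrf1, the start of Pcdh15, the start of Nkx1-1), for Eed-/- only (Lin28b, the start of Rbm46, H2-M10.4) and for Eed+/+ only (Nr2f2, and a Meis1 peak off every CpG island). The positions are chr1:78213794-78213993 for Pax3, chr9:89774558-89774757 for Rasgrf1, chr10:72562175-72562374 for Pcdh15, chr5:33776400-33776599 for Nkx1-1, chr10:45205739-45205938 for Lin28b, chr3:82680203-82680402 for Rbm46, chr17:36621689-36621888 for H2-M10.4, chr7:77490877-77491076 for Nr2f2 and chr11:18776992-18777191 for Meis1.
Pax3 upstream peak: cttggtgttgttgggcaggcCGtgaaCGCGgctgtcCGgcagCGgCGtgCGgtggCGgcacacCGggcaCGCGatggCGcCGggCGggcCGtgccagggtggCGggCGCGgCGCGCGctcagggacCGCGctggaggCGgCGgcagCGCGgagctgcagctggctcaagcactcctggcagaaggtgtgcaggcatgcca
Rasgrf1 peak: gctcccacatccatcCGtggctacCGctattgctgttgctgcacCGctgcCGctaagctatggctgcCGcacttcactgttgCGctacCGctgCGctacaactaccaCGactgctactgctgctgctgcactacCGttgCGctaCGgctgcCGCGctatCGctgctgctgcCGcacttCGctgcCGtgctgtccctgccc
Pcdh15 start peak: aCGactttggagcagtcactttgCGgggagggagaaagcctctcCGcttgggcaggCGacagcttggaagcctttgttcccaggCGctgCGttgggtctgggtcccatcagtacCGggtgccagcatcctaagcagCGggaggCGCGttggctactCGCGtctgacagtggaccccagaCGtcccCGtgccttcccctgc
Nkx1-1 start peak: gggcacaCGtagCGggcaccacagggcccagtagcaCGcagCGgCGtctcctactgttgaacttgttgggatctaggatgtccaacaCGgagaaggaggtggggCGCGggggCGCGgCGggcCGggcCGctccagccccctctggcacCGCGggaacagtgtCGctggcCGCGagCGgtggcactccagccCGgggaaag
Lin28b peak: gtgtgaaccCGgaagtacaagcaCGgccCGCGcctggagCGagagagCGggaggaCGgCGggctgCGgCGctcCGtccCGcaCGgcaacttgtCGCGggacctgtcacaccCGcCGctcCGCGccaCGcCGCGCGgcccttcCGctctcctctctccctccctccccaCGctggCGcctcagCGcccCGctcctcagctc
Rbm46 start peak: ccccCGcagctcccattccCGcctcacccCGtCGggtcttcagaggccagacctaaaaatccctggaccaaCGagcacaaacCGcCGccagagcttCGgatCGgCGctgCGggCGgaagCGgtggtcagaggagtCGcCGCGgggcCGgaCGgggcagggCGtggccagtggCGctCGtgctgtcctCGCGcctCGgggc
H2-M10.4 peak: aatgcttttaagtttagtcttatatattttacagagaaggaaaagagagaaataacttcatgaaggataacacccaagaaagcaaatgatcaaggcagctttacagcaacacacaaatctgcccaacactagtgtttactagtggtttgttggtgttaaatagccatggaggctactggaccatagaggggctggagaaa
Nr2f2 peak: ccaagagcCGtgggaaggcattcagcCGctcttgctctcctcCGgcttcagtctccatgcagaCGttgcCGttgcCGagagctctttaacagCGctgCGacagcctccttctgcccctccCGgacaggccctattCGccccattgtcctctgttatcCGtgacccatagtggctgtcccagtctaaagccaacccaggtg
Meis1 peak: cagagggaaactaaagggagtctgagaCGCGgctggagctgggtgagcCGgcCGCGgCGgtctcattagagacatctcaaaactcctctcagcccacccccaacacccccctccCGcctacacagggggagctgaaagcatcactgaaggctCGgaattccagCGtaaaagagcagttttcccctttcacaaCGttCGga
The Pax3, Rasgrf1, Pcdh15 and Nkx1-1 windows held 27, 18, 14 and 20 CpG dinucleotides, and the Lin28b and Rbm46 windows 28 and 24. The Nr2f2 and Meis1 windows held 11 each. The H2-M10.4 window held 0 and was 38.5% G and C.

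Distal peaks were set by the rule beyond 10000 bp, and reached much further. Distal Eed-/- peaks lay at a median of 51380 bp from the nearest RefSeq start (quartiles 25078 and 85903 bp), and distal Eed+/+ peaks at 44480.5 bp (quartiles 20276 and 84366.5 bp). In the Eed-/- list 43 peaks lay 10 to 20 kb away, 71 lay 20 to 50 kb, 72 lay 50 to 100 kb and 51 lay over 100 kb away. In the Eed+/+ list these counts were 82, 99, 79 and 74. The nearest class was thus more filled in Eed+/+ cells. The deposited location put 33 of the Eed-/- and 48 of the Eed+/+ distal peaks beyond 100 kb of every gene, and 29 of the Eed-/- and 57 of the Eed+/+ distal peaks within 10 kb of the 3′ end of a gene, since the rule measures from gene starts only. Of the distal peaks 144 of 237 in Eed-/- (60.8%) and 187 of 334 in Eed+/+ (56.0%) lay upstream of the nearest gene.

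**Figure D1:**
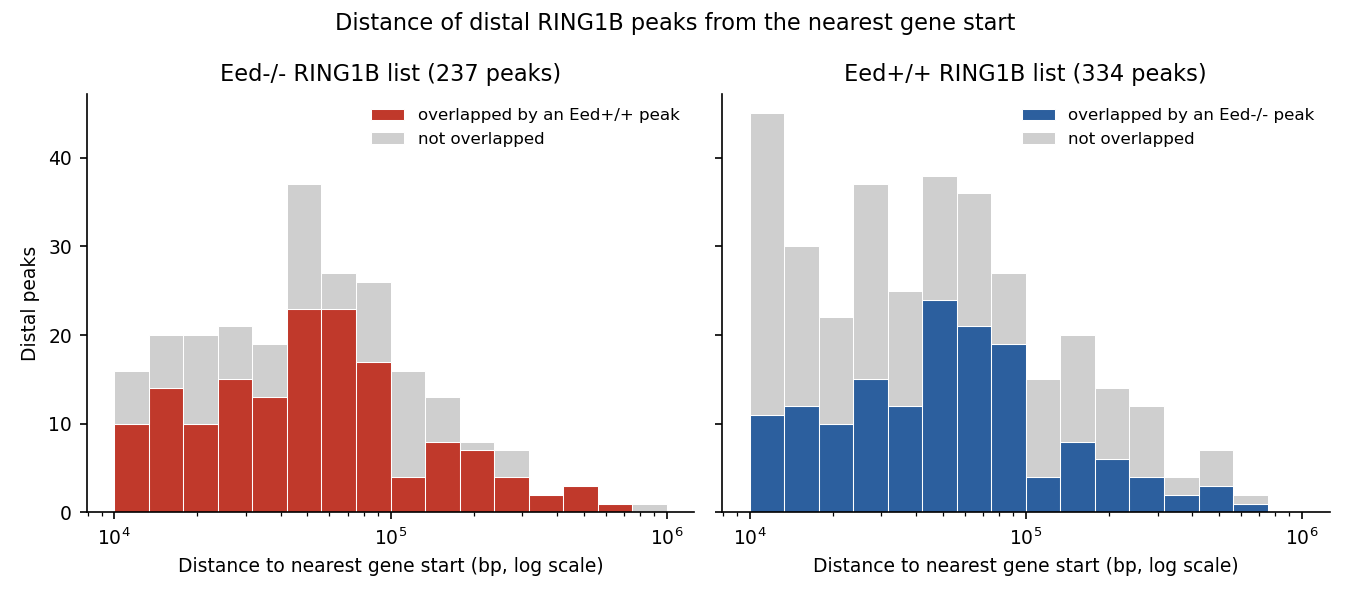
Number of distal RING1B peaks by distance of the peak midpoint from the nearest RefSeq start (bp, log scale), in the Eed-/- list (left, 237 peaks) and the Eed+/+ list (right, 334 peaks). Coloured bars are peaks overlapped by at least 1 bp in the other genotype, grey bars are not. The Eed+/+ bars just above 10000 bp are mostly grey (28 of 82 Eed+/+ peaks at 10 to 20 kb were overlapped).

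At the threshold, the nearest Eed-/- members were a peak 10441 bp upstream of Tpp1, which encodes a lysosomal protease, and one 10741 bp upstream of Tprgl. Just below it, and so not distal, were peaks 9964 bp from Otp, a homeobox gene, and 9898 bp from Neto2. In the Eed+/+ list the first members lay 10008 bp from Emx2 and 10098 bp from Irx2, both homeobox genes, and the first left out lay 9952 bp from EG664805 and 9685 bp from 4432412L15Rik. The farthest peaks were 879017 bp from Ddef2 in Eed-/- and 680661 bp from Magi2 in Eed+/+ cells. The Magi2 peak was found in both lists, at 680586 bp in Eed-/-. It covers a start of Magi2 itself in the GENCODE annotation, so this distance is to another start of the same gene. Likewise the Eed+/+ peak 609471 bp from Sgcd, which encodes a sarcoglycan, covers a GENCODE start of Sgcd, and the peak 482507 bp from Zkscan2 covers that of Hs3st4. The peak 501192 bp from Wrn in Eed-/- and 501205 bp in Eed+/+ cells was far from any start in GENCODE too, the nearest being 64534 bp away in Eed-/- and 64295 bp in Eed+/+ cells. Wrn encodes a RecQ DNA helicase.

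The annotated starts under distal peaks were mostly of protein-coding genes: 109 of 237 in Eed-/- cells (46.0%) and 122 of 334 in Eed+/+ cells (36.5%) covered one. Starts of long noncoding transcripts (the annotation's lincRNA and processed transcript classes) were under 23 and 33 peaks, and starts of miRNAs under 3 and 8. In 102 of the 128 Eed-/- and 126 of the 155 Eed+/+ cases the gene at the start had another name than the nearest gene in the list. The peak listed 444699 bp from Zwint in Eed-/- and 444742 bp in Eed+/+ cells covers the start of Pcdh15, a protocadherin of the inner ear. The peak listed under Cldn18 covers Sox14, a neuronal transcription factor, the peak under Epm2aip1 covers Trank1, and the peak under 4933407H18Rik covers Nkx1-1, a homeobox gene. The peak at 134363 bp from Ift80 in Eed+/+ cells covers 1110032F04Rik.
Beyond gene starts, 24 Eed-/- and 46 Eed+/+ peaks lay inside a GENCODE gene without covering its start, and 85 and 133 lay outside every gene. Of the peaks outside genes 68 Eed-/- (28.7% of distal peaks) and 100 Eed+/+ (29.9%) were also more than 10 kb from any GENCODE start, and these are distal and intergenic in both annotations.

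Distal Eed-/- peaks were found again in Eed+/+ cells more often than not, and the share of distal Eed+/+ peaks found again in Eed-/- cells depended on which Eed-/- peaks were counted. Of 237 distal Eed-/- peaks 154 (64.98%, 58.5% to 71.04%) were overlapped by an Eed+/+ peak, against 73.8% of all Eed-/- peaks. Of 334 distal Eed+/+ peaks 152 (45.5%, 40.1% to 51.0%) were overlapped by an Eed-/- peak, against 53.7% of all Eed+/+ peaks. This Eed+/+ share was 12.0% with peaks of a false discovery rate of 1% or less, and 3.59% with Eed-/- peaks that would hold more than 100 tags at the Eed+/+ depth. Among the peaks outside the rule the shares were 75.2% in Eed-/- (73.0% to 77.3%) and 55.1% in Eed+/+ (52.9% to 57.4%). Both shares were thus lower for distal peaks than for the others, and in neither genotype did the intervals of distal and other peaks meet. The Eed-/- partner used for each of the 152 overlapped distal Eed+/+ peaks was itself distal, though the Cbx8 peak described below also met Eed-/- peaks outside the rule. Where overlap of at least 50% of both peaks was asked for, 59.9% of Eed-/- and 42.5% of Eed+/+ distal peaks were overlapped. Wholly inside a peak of the other list lay 81 distal Eed-/- peaks and 16 distal Eed+/+ peaks. Of the 83 Eed-/- peaks that were not overlapped, 6 had an Eed+/+ peak within 20 kb, and of the 182 such Eed+/+ peaks 53 had an Eed-/- peak within 20 kb.

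**Figure D2:**
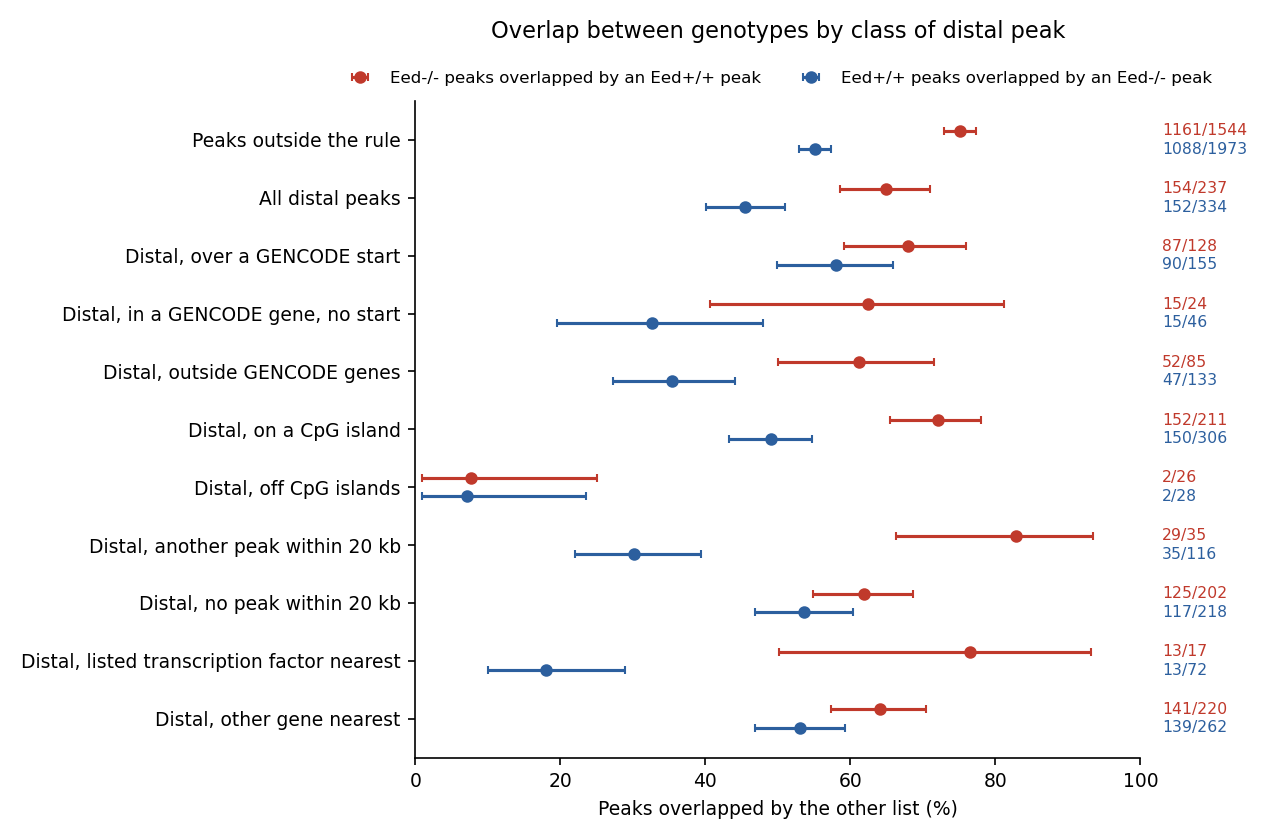
Share of peaks overlapped by at least 1 bp in the other genotype (x axis, %) by class of distal peak, with the peaks outside the rule on top. Points are shares, bars 95% exact binomial intervals, and the counts stand on the right, Eed-/- above Eed+/+ in each class. Among distal Eed+/+ peaks the share was 18.1% where a listed transcription factor gene was nearest and 53.1% elsewhere.

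Within the Eed+/+ list, distal peaks over a gene start were overlapped more often than distal peaks outside genes. The same split of peaks outside the rule is not given here. In the Eed-/- list 68.0% of the start peaks (87 of 128) and 61.2% of those outside genes (52 of 85) were overlapped, and in the Eed+/+ list 58.1% (90 of 155) and 35.3% (47 of 133). The Eed+/+ intervals of 49.9% to 65.9% for starts and 27.3% to 44.1% outside genes did not meet, and the Eed-/- intervals of 59.1% to 75.9% and 50.0% to 71.6% did. By distance, the Eed+/+ share was 34.1% at 10 to 20 kb, 44.4% at 20 to 50 kb, 65.8% at 50 to 100 kb and 37.8% beyond 100 kb. The Eed-/- share stayed between 56.9% and 70.8% over these classes.

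Distal peaks differed in how close they lay to other peaks of the same list. In the Eed-/- list 35 of 237 (14.8%) had another Eed-/- peak within 20 kb, and in the Eed+/+ list 116 of 334 (34.7%) had another Eed+/+ peak there. Over all peaks these shares were 20.6% and 31.3%. Distal Eed-/- peaks had their nearest neighbour at a median of 250872 bp and distal Eed+/+ peaks at 62164.5 bp, against 228990 bp over all Eed-/- and 124162 bp over all Eed+/+ peaks. Eed+/+ distal peaks with a neighbour were overlapped by an Eed-/- peak in 35 of 116 cases (30.2%, 22.0% to 39.4%), and those without in 117 of 218 (53.7%, 46.8% to 60.4%). In the Eed-/- list 29 of 35 (82.9%, 66.4% to 93.4%) were overlapped where a neighbour was present and 125 of 202 (61.9%, 54.8% to 68.6%) where none was, and these intervals meet. Peaks outside the rule were not split by neighbour here, so these differences may not be particular to distal peaks.

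The level of RING1B at the 152 overlapped distal Eed+/+ peaks was lower in Eed-/- cells at each of them. The level is the number of tags per kb of peak per 1000000 mapped tags, without subtraction of input. Its median over the pairs was 1.31 in Eed-/- (quartiles 1.153 and 1.495) against 5.25 in Eed+/+ cells (quartiles 4.14 and 7.14). The ratio Eed-/- over Eed+/+ had a median of 0.237 (95% interval of the median 0.219 to 0.259) and a range of 0.119 to 0.662. At the 1240 pairs of all peaks the median ratio was 0.225, and the Eed-/- level was likewise lower at 1240 of 1240. The ratio of the unscaled tags per kb was 0.991, so the lower level appears once tags are divided by the library totals, and the median ratio lay close to 0.239, the inverse of the depth ratio. The deposited fold enrichment had a median ratio of 0.292, and was lower in Eed-/- cells at every pair but that near Fgfr3, where it was 5.68 in Eed-/- and 4.46 in Eed+/+ cells. Both lists ask for more than 100 tags at different depths, which decides which sites can form a pair. How far this cut shapes the size of the ratio was not tested. By conventional ChIP at selected loci, the paper reports much lower RING1B occupancy in Eed-/- than in Eed+/+ cells. Of the distal Eed-/- peaks, 14 would hold more than 100 tags at the Eed+/+ depth.

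**Figure D3:**
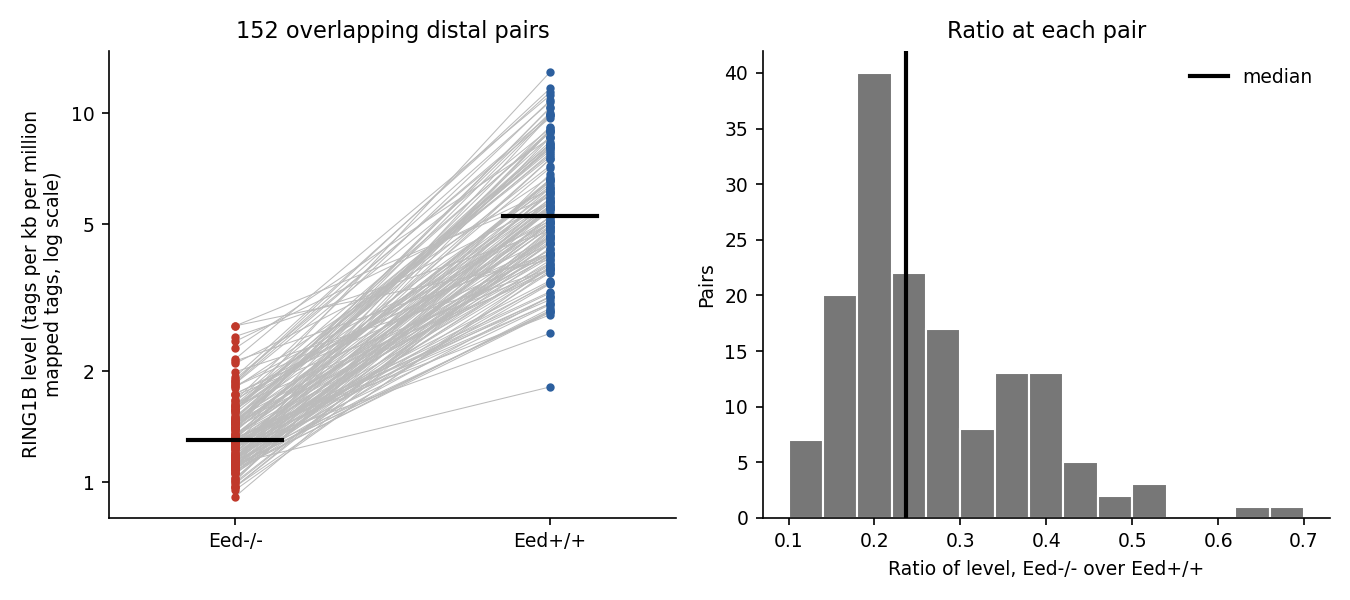
RING1B level of 152 overlapping distal pairs (tags per kb per 1000000 mapped tags, log scale) in Eed-/- and Eed+/+ cells, joined by grey lines with a black bar at each median (left), and the ratio Eed-/- over Eed+/+ at each pair with its median of 0.237 (right). Every line rises to the right, and the highest ratio is 0.662.

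The peak with the strongest enrichment over background in either distal list lay 20212 bp upstream of Pax3 in Eed+/+ cells (chr1:78212308-78215537). PAX3 is a transcription factor of the neural crest and muscle precursors. The peak held 330 tags over 3023 bp in Eed-/- and 703 tags over 3230 bp in Eed+/+ cells. Its fold enrichment was 7.31 in Eed-/- and 66.90 in Eed+/+ cells, its level was 1.55 in Eed-/- against 12.9 in Eed+/+ cells, and its ratio of 0.120 was the lowest but for the pair near Abhd5, at 0.119. At the peak near Rasgrf1, which encodes an exchange factor for Ras, the level was 1.67 in Eed-/- and 10.8 in Eed+/+ cells. At the start of Pcdh15 the Eed-/- level of 1.20 stood against 9.04 in Eed+/+ cells, and at that of Sox14 1.28 stood against 8.94. The Nkx1-1 peak was the widest Eed-/- peak of any pair, at 7812 bp against 10262 bp in Eed+/+ cells, with levels of 1.88 in Eed-/- and 10.8 in Eed+/+ cells. At the other end, the level was 2.65 in Eed-/- and 4.01 in Eed+/+ cells at a peak upstream of Mga (24349 bp in the Eed-/- list), a ratio of 0.662. MGA is a T-box and basic helix-loop-helix protein of a variant PRC1. The peaks near Fgfr3, Mn1 and Scarf2 followed, with ratios of 0.621, 0.527 and 0.518.

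Summits of the pairs lay close together, with a median gap of 96 bp, and were within 500 bp at 128 of 152 (84.2%). Over the pairs of all peaks the median gap was 96.5 bp, and 946 of 1240 (76.3%) were within 500 bp. The Eed-/- peak of a pair was narrower at 110 of 152 pairs (72.4%), and 80 of 152 (52.6%) lay inside the Eed+/+ peak. Over the pairs of all peaks these counts were 943 (76.0%) and 711 (57.3%) of 1240. Median width over the distal pairs was 2216.5 bp for Eed-/- peaks against 2677 bp for Eed+/+ peaks. Over the pairs of all peaks it was 2348 bp against 2903.5 bp. The widest distal peak, 15950 bp near Cbx8 in Eed+/+ cells, overlapped 4 Eed-/- peaks, 2 of them distal. CBX8 is a chromodomain subunit of PRC1.

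Over all distal peaks the width had a median of 2009 bp in Eed-/- (1858 to 2173) and 2530 bp in Eed+/+ (2428 to 2672), against 2186.5 bp (2135 to 2246) for Eed-/- and 2698 bp (2642 to 2741) for Eed+/+ peaks outside the rule. Median levels were 1.30 for distal Eed-/- peaks and 4.43 for distal Eed+/+ peaks, and median fold enrichments 4.83 for Eed-/- and 15.07 for Eed+/+. Peaks outside the rule had median levels of 1.32 for Eed-/- and 4.93 for Eed+/+. The width intervals of distal and other peaks meet in each list. The false discovery rate of the peak caller was at or below 1% for 54 of 237 distal Eed-/- peaks and for all 334 Eed+/+ ones. Overlapped Eed-/- peaks were wider than those not overlapped, 2216.5 bp against 1670 bp. In Eed+/+ cells overlapped peaks were stronger, with a level of 5.25 against 3.80.

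Most distal peaks lay on CpG islands. Of the distal Eed-/- peaks 211 of 237 lay on a CpG island (89.0%, 84.3% to 92.7%), against 96.1% of all Eed-/- peaks. Of the distal Eed+/+ peaks 306 of 334 did (91.6%, 88.1% to 94.4%), against 94.3% of all Eed+/+ peaks, a share inside that interval. Islands were found in the genome sequence by a running score with 200 bp, 50% GC and an observed over expected CpG ratio of 0.6 as minimums. Median GC content was 60.2% for distal Eed-/- peaks and 57.6% for distal Eed+/+ peaks, while the genome as a whole holds 41.8%. Median observed over expected CpG was 0.655 for the Eed-/- and 0.578 for the Eed+/+ distal peaks. In each list the overlapped peaks had higher medians than the others: GC was 60.4% against 58.0% in Eed-/- and 59.3% against 55.2% in Eed+/+ cells. In the 300 bases around the summit the median number of CpG dinucleotides was 28 for Eed-/- and 26 for Eed+/+ distal peaks, the same as over all peaks of each list. The palindromic E-box CACGTG, which reads the same on both strands, stood in 12.2% of the distal Eed-/- and 12.3% of the distal Eed+/+ windows, against 10.1% and 8.32% of all windows. It is the only motif reported here, and its difference from all windows was not tested.

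**Figure D4:**
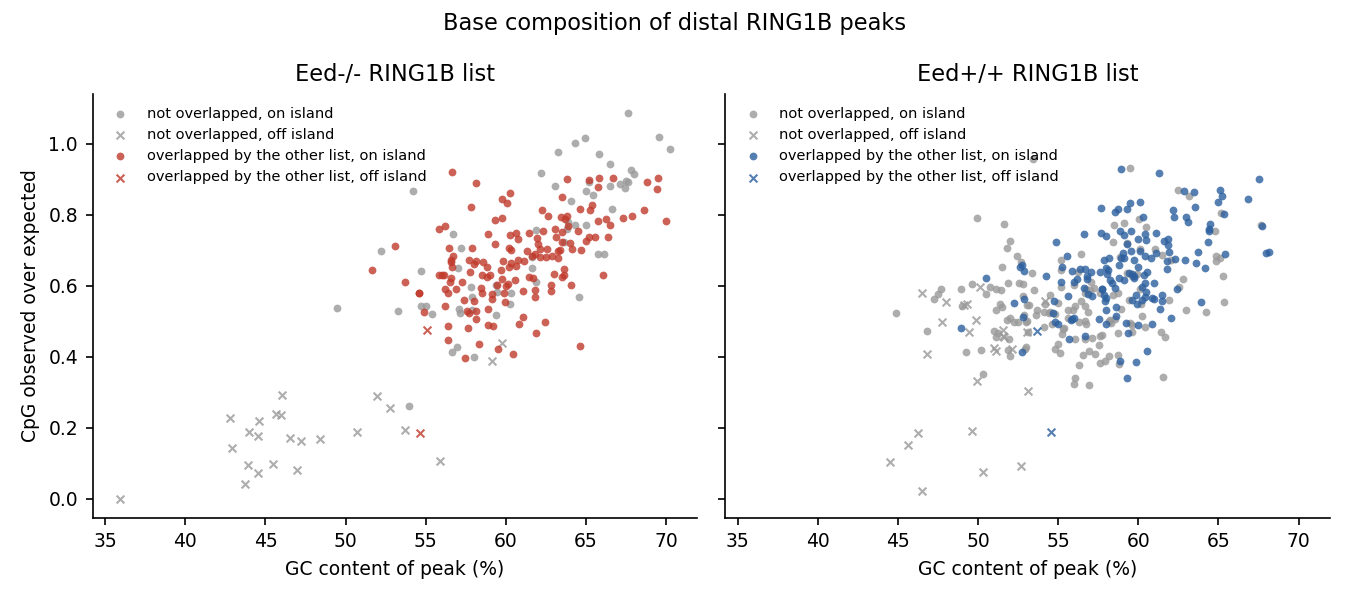
GC content (x axis, %) and observed over expected CpG ratio (y axis) of each distal peak in Eed-/- (left) and Eed+/+ (right) cells. Circles are peaks on a CpG island and crosses peaks off every island, coloured where the other list overlaps and grey where not. The crosses, 26 in Eed-/- and 28 in Eed+/+, are nearly all grey (2 coloured in each list).

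Distal peaks off every island were almost never shared. The overlap of off-island peaks outside the rule is not given here, so this may not be particular to distal peaks. In Eed-/- 2 of 26 and in Eed+/+ 2 of 28 were overlapped in the other genotype, at the same places: one near Mn1 and one 86068 bp from Hsd17b12 in Eed-/- and 86270 bp in Eed+/+ cells, 1548 bp in Eed-/- and 1442 bp in Eed+/+ from the start of the miRNA gene Mir129-2. The strongest Eed-/- peaks of this kind had the highest fold enrichment of all distal Eed-/- peaks, yet few CpG dinucleotides. No input of Eed-/- cells is among the samples to set beside these values. A peak 22341 bp from H2-M10.4, a gene of the major histocompatibility complex, held 235 tags in 782 bp. Its fold enrichment was 47.33, its GC content 35.9% and its observed over expected CpG ratio 0. A peak 54640 bp from Abcg3 held 291 tags (34.20), and one 41293 bp from Trim56 held 280 tags (25.20). None of these 3 was overlapped by an Eed+/+ peak. Without these 3 peaks the counts and shares of the distal Eed-/- list hardly moved (65.8% overlapped, 90.2% on an island). The widest Eed-/- peak, 10721 bp near Gnaz with a fold enrichment of 2.71, was also off every island. In Eed+/+ cells the strongest had homeobox genes as the nearest genes. A peak 143189 bp from Meis1, over the start of the lincRNA gene 8430419K02Rik, had a fold enrichment of 27.54. Peaks 13214 bp from Hoxa13, 16757 bp from Hoxb13 and 16664 bp from Pou3f3 had 25.11, 24.91 and 23.46. Observed over expected CpG at these peaks was, in the same order, 0.470, 0.458, 0.499 and 0.558. Of the off-island peaks 1 of 26 in Eed-/- and 15 of 28 in Eed+/+ had a gene of the transcription factor lists as the nearest gene. The lists cover Hox, homeobox and other developmental regulators.

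The nearest genes numbered 219 in Eed-/- and 285 in Eed+/+ cells, and 143 were in both, which was 65.3% of the Eed-/- and 50.2% of the Eed+/+ genes. The transcription factor lists cover 9 groups, namely Hox, other homeobox, Sox, forkhead, T-box, GATA, GLI and ZIC, AP-2, basic helix-loop-helix and nuclear receptor genes. In all, 17 of 237 distal Eed-/- peaks (7.17%, 4.23% to 11.2%) and 72 of 334 distal Eed+/+ peaks (21.6%, 17.3% to 26.4%) had such a gene nearest. Among the other peaks the shares were 20.8% in Eed-/- and 24.2% in Eed+/+ cells. In the Eed-/- list 13 of the 17 peaks near a listed gene (76.5%, 50.1% to 93.2%) and 141 of 220 near another gene (64.1%, 57.4% to 70.4%) were overlapped. For the Eed-/- peaks outside the rule the shares were 94.7% near a listed gene (304 of 321) and 70.1% near another gene (857 of 1223). In the Eed+/+ list, of 72 Eed+/+ peaks near a listed gene 13 (18.1%, 10.0% to 28.9%) were overlapped, and of 262 near another gene 139 (53.1%, 46.8% to 59.2%). For the Eed+/+ peaks outside the rule the shares were 53.0% near a listed gene and 55.8% near another gene. Of the 72 peaks 52 had another Eed+/+ peak within 20 kb. The median level of all 72 was 4.21, near that of 4.53 for the other distal peaks. On a CpG island lay 57 of the 72, against 249 of the 262 near another gene. A GENCODE start was covered by 17 of the 72, against 155 of all 334 distal Eed+/+ peaks. Whether the lower overlap near listed genes goes with these features was not tested.

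Homeobox genes outside the Hox clusters were nearest to 7 distal peaks in Eed-/- (2.95%, against 9.003% of other peaks) and 29 in Eed+/+ cells (8.68%, against 10.1%). The Eed-/- members were Pax3, Onecut1, Lhx2, Pou1f1, Irx5, Pax2 and Pou6f1, and 6 of the 7 were overlapped in Eed+/+ cells. Pax3 and Onecut1 had fold enrichments of 7.31 and 6.11 in Eed-/- and 66.90 and 43.43 in Eed+/+ cells. The Hox clusters had 0 peaks in Eed-/- and 7 in Eed+/+ cells, none of them overlapped, with fold enrichments of 27.49 near Hoxd1 and 25.11 near Hoxa13. The 7 were 2.096% of distal Eed+/+ peaks, and Hox genes were nearest to 32 of the other Eed-/- peaks (2.07%) and 67 of the other Eed+/+ peaks (3.40%). Forkhead genes had 3 distal peaks in Eed-/- (1.27%, against 1.68% of other peaks) and 8 in Eed+/+ cells (2.40%, against 1.88%). T-box genes had 2 in Eed-/- (0.844%, against 0.777%) and 4 in Eed+/+ cells (1.20%, against 1.01%), so both families lay near the share among other peaks. Nuclear receptors had 2 in Eed-/- (0.844%, against 0.972%) and 9 in Eed+/+ cells (2.69%, against 0.811%). The GATA, GLI and ZIC group had 1 in Eed-/- (0.422%, against 2.72%) and 7 in Eed+/+ cells (2.096%, against 2.89%). Basic helix-loop-helix genes had 0 in Eed-/- (against 2.33%) and 6 in Eed+/+ cells (1.80%, against 2.84%). AP-2 genes had 1 in Eed-/- (0.422%, against 0.389%) and 2 in Eed+/+ cells (0.599%, against 0.405%). Sox genes were nearest to 1 in Eed-/- (0.422%, against 0.842%) and 0 in Eed+/+ cells (against 0.862%). By GENCODE starts, 1 distal Eed-/- peak covered that of Sox14, and 3 distal Eed+/+ peaks covered those of Sox5, Sox10 and Sox14. All counts by gene list are by nearest gene, and starts under distal peaks often had another name. Of the 9 Eed+/+ nuclear receptor peaks 5 were near Nr2f2, an orphan receptor of venous and neural development. Outside the transcription factors the counts were small. Signalling genes of the Wnt, Bmp, Tgfb, Fgf and Hedgehog pathways had 3 peaks in Eed-/- (1.27%, against 3.63% of other peaks) and 3 in Eed+/+ cells (0.898%, against 4.11%). Ion channels and neurotransmitter receptors had 2 in Eed-/- (0.844%, against 3.89%) and 6 in Eed+/+ cells (1.80%, against 4.46%). Cadherins and axon guidance genes had 2 in Eed-/- (0.844%, against 3.37%) and 6 in Eed+/+ cells (1.80%, against 3.55%). Polycomb and trithorax genes had 4 peaks in Eed-/- (Cbx8 with 2 peaks, Pcgf5, Sfmbt1) and 4 in Eed+/+ cells (Cbx8, Pcgf5, L3mbtl2, Rybp). The shares were 1.69% in Eed-/- (against 0.583% of other peaks) and 1.20% in Eed+/+ cells (against 0.405%). RYBP and PCGF5 are subunits of variant PRC1. The Eed+/+ peak listed under Rybp lay 173883 bp away, off every island, with a fold enrichment of 3.13. The Eed+/+ peak listed under L3mbtl2 covers the start of Chadl, and the 2 Eed-/- peaks of Cbx8 lie within 1 Eed+/+ peak. Mael, a germline gene, was nearest to 2 peaks in each list, all overlapped. In both lists these peaks cover GENCODE starts of Ildr2 and 5330438I03Rik, not of Mael. By nearest gene alone, germline genes had 0.844% in Eed-/- (against 0.777% of other peaks) and 0.599% in Eed+/+ cells (against 0.101%). Pluripotency genes were nearest to 1 Eed-/- peak (Sox2, 0.422%, against 0.194%) and 1 Eed+/+ peak (Tcl1, 0.299%, against 0.203%). The noncoding RNA genes Dio3os and Snhg6 were nearest to 1 overlapped peak each in both lists. Noncoding RNA genes thus had 0.844% in Eed-/- (against 0.324%) and 0.599% in Eed+/+ cells (against 0.405%). Genes of the Notch pathway had 0 distal peaks in either list (against 0.324% of other Eed-/- and 0.253% of other Eed+/+ peaks). Feedback inhibitors also had 0 (against 0.648% in Eed-/- and 0.355% in Eed+/+ cells).

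Several genes had runs of distal peaks. Nr2f2 had 0 distal peaks in Eed-/- cells, where both of its 2 peaks lay at its start, and 5 in Eed+/+ cells. The 5 stood at 11337, 14597, 22775, 28345 and 79106 bp downstream of its start, with fold enrichments of 14.28, 44.19, 14.65, 30.86 and 15.93. Those at 11337 and 14597 bp nearly touch (chr7:77491646-77496637 and chr7:77490123-77491640), so the 5 calls need not be 5 separate regions. None of the 5 was overlapped. Pax2, a paired-box gene of kidney and midbrain, had 1 distal peak in Eed-/- and 4 in Eed+/+ cells. The one shared, 15479 bp upstream in Eed-/- and 15123 bp in Eed+/+ cells, had a level of 1.09 in Eed-/- and 6.13 in Eed+/+ cells. Mef2c and Meis2 had 0 distal peaks in Eed-/- cells and 3 each in Eed+/+ cells. The Mef2c peaks lie over and beside the lincRNA gene C130071C03Rik, some 212513 to 223249 bp from the start given. Polg, a mitochondrial DNA polymerase gene, was the nearest gene of 3 peaks in Eed-/- and 5 in Eed+/+ cells. They lie 31025 to 70074 bp upstream in Eed+/+ cells, at and around the lincRNA gene AI854517, and the Eed+/+ peak at 40686 bp also covers the start of a miRNA gene. All 3 Eed-/- peaks were overlapped, with levels of 1.35, 1.17 and 1.09 in Eed-/- against 6.03, 4.93 and 2.89 in Eed+/+ cells.

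**Figure D5:**
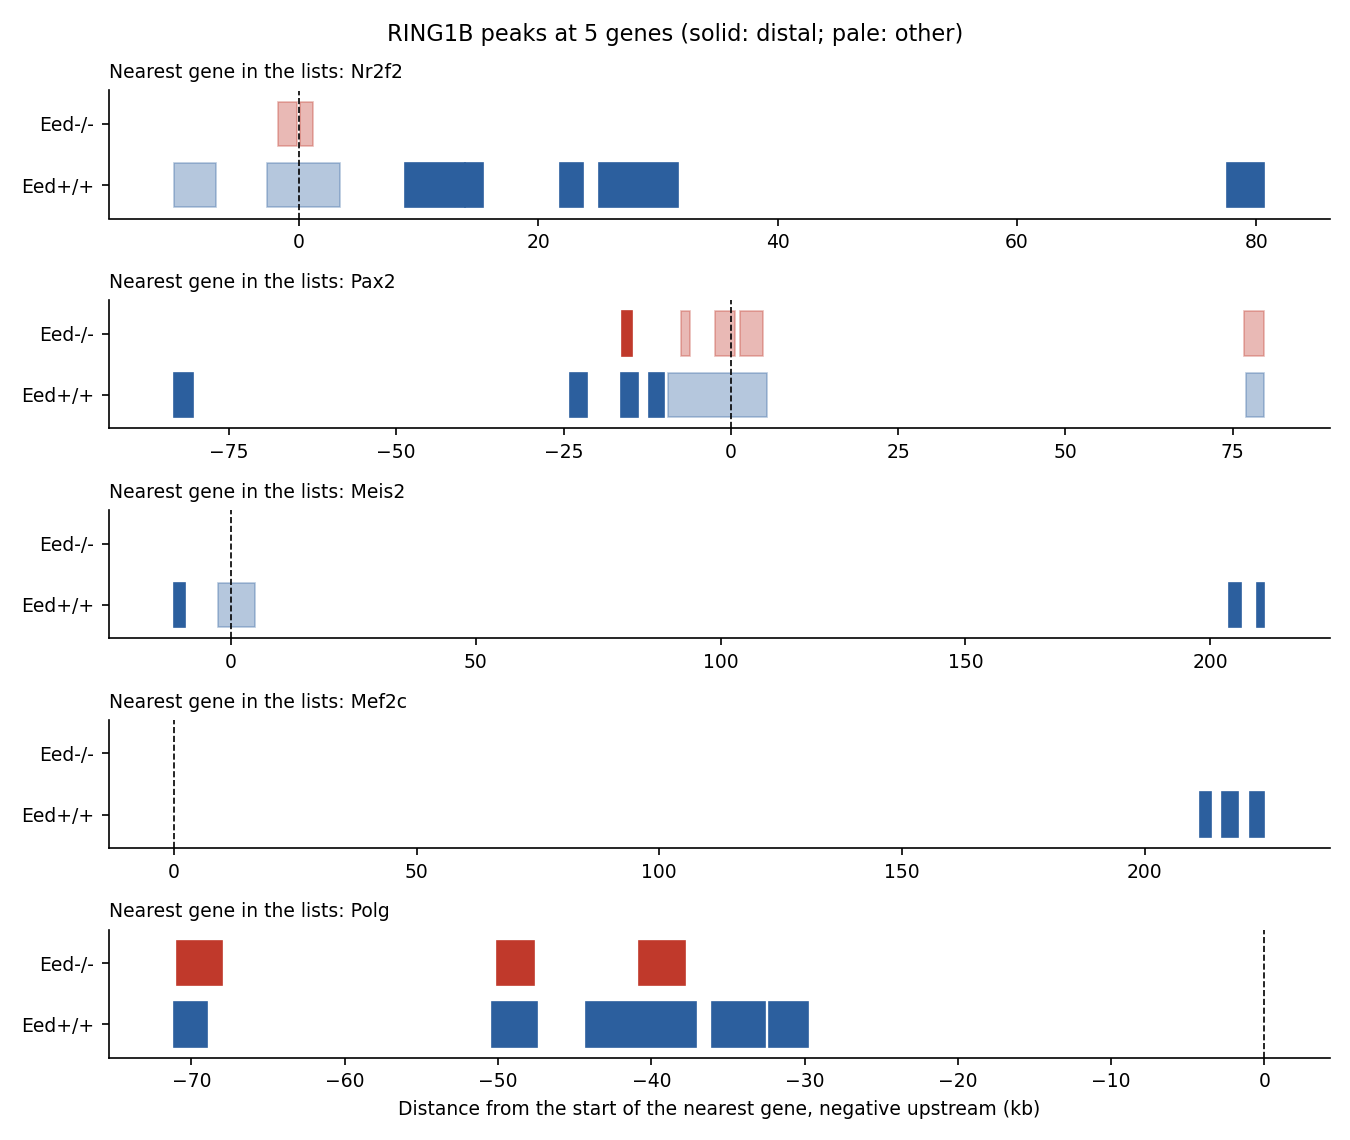
Peaks given to 5 genes by the lists, drawn to scale by distance from the start that the lists use for most of their distal peaks (kb, negative upstream, dashed line at 0), Eed-/- above Eed+/+. Solid blocks are distal peaks and pale blocks are other peaks. Nr2f2, Meis2 and Mef2c have distal peaks in Eed+/+ cells only, and the 3 Eed-/- blocks at Polg stand over Eed+/+ blocks.

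The strongest distal Eed-/- peaks on an island without an Eed+/+ peak were at Lin28b (10.25), near Psd2 (9.62) and 27725 bp from Lrat (8.81). Lin28b encodes an RNA-binding protein that blocks let-7 maturation. The peak listed under Lrat covers the starts of Rbm46 and 4930564K09Rik. Rbm46 is a germ cell RNA-binding protein. A further Eed-/- peak at the Sox2ot start, 14294 bp from Sox2, held 207 tags and had no Eed+/+ partner. The peak of Sfmbt1, which encodes a Polycomb-related MBT-domain protein, covers a GENCODE start of that gene, at a fold enrichment of 5.42. It held 169 tags and had no Eed+/+ partner. The paper gives Sfmbt1 as a locus where both genotypes had similar RING1B occupancy, though only the Eed-/- list records a peak. A peak missing from a list thus need not mean that RING1B was absent. The 8 strongest distal peaks of Eed+/+ cells without an Eed-/- peak were near Nr2f2 (44.19), Aass with the start of Fezf1, a forebrain transcription factor, 3382 bp away (43.32), Meis1 (37.32), Fat3, an atypical cadherin (32.30), Nfib (31.41), a second Nr2f2 peak (30.86), Emx2 (30.84) and Nkx2-1 (29.85), by fold enrichment. Of the 8, 1 covered a GENCODE start, that of 8430419K02Rik near Meis1.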

How the data were processed

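Distal peaks were taken from the RING1B peak lists of Eed-/- and Eed+/+ mESCs. The lists hold only peaks that passed 2 limits of the authors, more than 100 tags and a MACS false discovery rate below 2%. The tags behind them are Bowtie alignments to mm9 at positions that are unique in the genome. The nearest gene and location of each peak were added by the authors from CisGenome and their own code. Tool versions were not stated in the sources used. The deposited lists hold, per peak, a raw tag count, a fold enrichment over background (a ratio), a false discovery rate in percent and a score from the p-value, the last not used. The library totals of 70343706 (Eed-/-) and 16814546 (Eed+/+) mapped tags came from the study's methods.

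In each list 2 peaks carry no distance and stay outside the rule. GENCODE M1 genes and CpG islands found in the NCBIM37 (mm9) reference sequence were added with Python 3.11.15, numpy 2.4.6, scipy 1.17.1, pandas 2.3.3 and numba 0.67.0. The deposited distance fell within 50 bp of a GENCODE start of the same-named gene for 83.5% of Eed-/- and 81.8% of Eed+/+ peaks. Overlap means 1 bp or more. The code was tested on simulated data. Shares have 95% exact (Clopper-Pearson) intervals and medians order-statistic intervals. No test was run, as each genotype has 1 list. Members and gene lists were chosen with earlier results of these data known.

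Peaks were named by rule: the 8 of highest fold enrichment among distal peaks overlapped, Eed-/- only and Eed+/+ only; in each list the 4 farthest, the 4 widest, the 2 on either side of 10000 bp and the 4 strongest off islands; genes with 3 or more distal peaks; up to 4 per gene list; and the 4 pairs of highest ratio. Fewer than these are described. The pairs near Abhd5 and Hsd17b12 were singled out after their values were seen. Alternatives changed the false discovery rate, distance, chromosomes, depth, annotation, overlap, scaling and island definition. CBX7 and input samples were not analysed here.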

Additional observations from a re-analysis of the deposited data

How the results depend on the processing

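No value reversed under any of the 63 alternatives tried for 9 results, 43 differed by less than the interval or spread of the value and 20 moved further. At a false discovery rate of 1% or less 54 distal Eed-/- peaks were left, 74.1% of them were overlapped and their median width was 2304 bp, while 12.0% of distal Eed+/+ peaks were overlapped and the median level ratio was 0.202. With Eed-/- peaks limited to those above 100 tags at the Eed+/+ depth, 14 distal Eed-/- peaks were left, 85.7% were overlapped, their median width was 4649.5 bp, and 3.59% of distal Eed+/+ peaks were overlapped. Both settings remove Eed-/- peaks by construction, and the overlap of Eed+/+ peaks rests on them. Outside every GENCODE gene and beyond 10000 bp of every start, 68 Eed-/- and 100 Eed+/+ peaks were left, of which 76.5% and 88.0% lay on an island. A shorter minimum distance gave 86.7% of Eed+/+ peaks on an island, and including chromosomes X and Y 83.5% of Eed-/- peaks. The stricter island definition (500 bp, 55% GC, 0.65) gave 76.4% in Eed-/- and 68.0% in Eed+/+ cells. The level ratio was 0.292 from fold enrichment, 0.991 from unscaled tags per kb and 0.217 with all Eed-/- tags summed over the Eed+/+ width. Leaving out the 3 Eed-/- peaks of highest fold enrichment was chosen after seeing the data. No paired analysis was possible because each genotype has 1 list with no replicate columns, and for the same reason no replicate could be left out.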
